A study of Rattus norvegicus with 12 samples.

Results

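The Nr4a family of orphan nuclear receptors was followed across DEHP doses in cultures of neonatal rat heart cells. Its members are Nr4a1 (also called Nur77), Nr4a2 (Nurr1) and Nr4a3 (NOR-1), taken as the probe sets whose platform annotation gives exactly 1 gene symbol that belongs to the family. Each gene had 1 such probe set, so 3 of 27342 probe sets and 3 of 14324 measured genes are members. The family was chosen by the log2 ratios of its genes on these same arrays, in vehicle and at 1, 10 and 50 µg/ml, so all values of the members are descriptions without a test. DEHP, di(2-ethylhexyl) phthalate, is a plasticiser of polyvinyl chloride. Sprague-Dawley rat pups 2 days old, all of 1 litter per the series description, gave the heart cells, which were isolated by enzymatic digestion, kept in culture for 3 days and then treated for 3 days. The groups were vehicle (0.1% DMSO alone) and DEHP at 1, 10 or 50 µg/ml, each dose also in 0.1% DMSO, with 3 Affymetrix arrays a group and 12 in all. The arrays of a group are called biological replicates by the submitters, so the errors measure the spread between cultures of 1 litter.

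Nr4a receptors are transcription factors whose activity depends mainly on how much of them a cell makes, since their ligand pocket is filled by bulky side chains. They are immediate early genes: hormones that raise cyclic AMP, calcium signals and growth factors switch on their transcription within minutes, through the factors CREB and MEF2 among others. The proteins bind the DNA element called NBRE as monomers, and Nr4a1 and Nr4a2 also pair with the retinoid X receptors. In heart muscle cells they are known as genes induced by beta-adrenergic stimulation.

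CREB can act at sites in front of a gene, and the promoters are shown with the 5-letter core of the cyclic AMP response element (TGACG, read on both strands) in capitals. RefSeq promoter windows of the GRCr8 build run from 250 bases before to 50 bases after the gene's start, and the table used here held Nr4a1 and Nr4a2, 2 of the 3 members, but not Nr4a3. The Nr4a1 window lies at chr7:134259888-134260187 on the plus strand, and the Nr4a2 window at chr3:62104838-62105137 on the minus strand.
Nr4a1: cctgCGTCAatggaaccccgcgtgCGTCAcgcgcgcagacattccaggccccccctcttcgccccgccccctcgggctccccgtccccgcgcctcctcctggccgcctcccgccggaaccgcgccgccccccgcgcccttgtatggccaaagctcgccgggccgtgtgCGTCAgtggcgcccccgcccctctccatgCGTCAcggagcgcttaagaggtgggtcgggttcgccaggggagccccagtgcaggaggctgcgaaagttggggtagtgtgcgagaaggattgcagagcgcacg
Nr4a2: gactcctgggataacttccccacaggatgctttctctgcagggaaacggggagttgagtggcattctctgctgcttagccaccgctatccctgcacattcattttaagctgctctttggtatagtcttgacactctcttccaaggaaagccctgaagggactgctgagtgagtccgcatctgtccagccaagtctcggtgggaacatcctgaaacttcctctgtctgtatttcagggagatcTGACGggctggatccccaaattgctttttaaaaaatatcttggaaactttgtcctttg
The core occurred 4 times in the Nr4a1 window and 1 time in the Nr4a2 window. Of all 33469 promoter windows 21.2% held it 1 or more times and 0.236% held it 4 or more times. Each of the 4 cores of Nr4a1 stood within the longer motif TGACGCA, read on the minus strand, with first bases 248, 228, 84 and 55 bases before the start. TGACGCA, a search added after the sequence was seen, overlaps the core and occurred in 1.9% of all windows, and 1 window, that of Nr4a1, held 4. The palindrome TGACGTCA, which holds the core on both strands, was absent from both windows and occurred in 1.83% of all. The NBRE motif AAAGGTCA was absent from both windows as well, against 1.43% of all. G and C made up 72.3% of the Nr4a1 window and 48.7% of the Nr4a2 window, and the motif counts were not matched for base composition. These matches are letters in a window and not measured binding.

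Each deposited value sets an array against the middle of the 12 arrays for its probe set, and is given here as a log2 ratio. They carry no expression level, so whether a member was near background was not analysed here, and the marker genes of heart muscle could be followed in their changes but not checked for their level. No source used here records which way the ratios run. They were taken with the array on top, and with the ratio turned every higher value below would be a lower one of equal size. The median ratio of an array lay between 0.994 and 1.01. The second replicate at 10 µg/ml stood apart within its group, with an SD of log2 ratios over all probe sets of 0.17, against 0.097 and 0.088 on the other arrays at that dose.

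Nr4a1 and Nr4a3 were far higher at 50 µg/ml than in vehicle, all members stood somewhat higher at 1 µg/ml, and none stood apart at 10 µg/ml. Errors of differences are standard errors of a limma model with 4 group means over the 12 arrays, n = 3 per group. For each of the 3 members all 3 arrays at 50 µg/ml lay above all 3 vehicle arrays, and the same held at 1 µg/ml. Of all genes, 19.5% showed that separation at 50 µg/ml and 16.7% at 1 µg/ml. None (0 of 3) was separate in that direction at 10 µg/ml, with 5.01% of all genes.

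**Figure D1:**
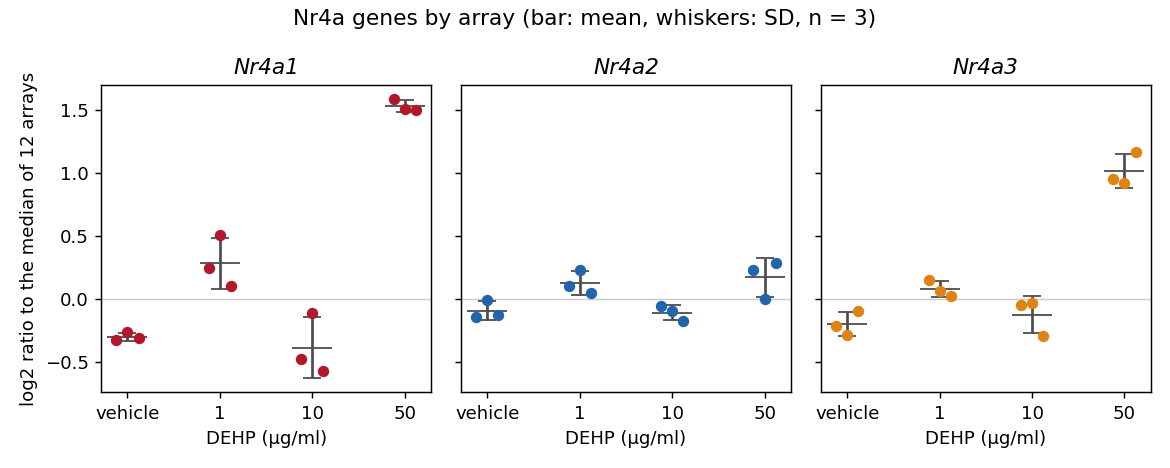
Log2 ratio of each array to the median of the 12 arrays (vertical axis) for Nr4a1, Nr4a2 and Nr4a3, by DEHP dose in µg/ml (horizontal axis, not to scale). Points are arrays, the horizontal bar is the mean and the whiskers the SD of 3 arrays. The 50 µg/ml arrays of Nr4a1 sit between 1.50 and 1.59, above every other array of that gene.

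Nr4a1, first described in cells stimulated with nerve growth factor, had log2 ratios of -0.32, -0.26 and -0.31 in vehicle, 0.25, 0.51 and 0.11 at 1 µg/ml, -0.47, -0.11 and -0.57 at 10 µg/ml, and 1.59, 1.51 and 1.50 at 50 µg/ml. The 50 µg/ml arrays lay above all others, the 1 µg/ml arrays came next, and the 10 µg/ml arrays lay on both sides of the vehicle arrays. The mean was 1.53 ± 0.05 at 50 µg/ml and -0.30 ± 0.03 in vehicle (SD), a difference of 1.83 ± 0.11 (SE) or 3.56-fold. Among the 14324 genes this was the 4th highest difference at that dose.
The mean of Nr4a1 at 1 µg/ml was 0.29 ± 0.20, against -0.30 ± 0.03 in vehicle (SD), a difference of 0.59 ± 0.11 (SE) or 1.50-fold, the 15th highest of all genes. The second replicate at 10 µg/ml was the highest of its group for this gene. The difference at 10 µg/ml was -0.09 ± 0.11, and it was -0.22 without that array. In the order of the group means, 50 µg/ml stood above 1 µg/ml by 1.25 ± 0.11 and 1 µg/ml stood above vehicle, while vehicle and 10 µg/ml overlapped.

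Nr4a3, which shares the DNA element of Nr4a1 and is likewise an immediate early gene, had log2 ratios of -0.21, -0.28 and -0.09 in vehicle, 0.16, 0.06 and 0.03 at 1 µg/ml, -0.05, -0.03 and -0.29 at 10 µg/ml, and 0.96, 0.92 and 1.17 at 50 µg/ml. Its 50 µg/ml arrays again lay above all others, its 1 µg/ml arrays lay above the vehicle and the 10 µg/ml arrays, and the last 2 groups overlapped. The mean was 1.02 ± 0.13 at 50 µg/ml and -0.20 ± 0.09 in vehicle (SD), a difference of 1.21 ± 0.08 (SE) or 2.32-fold and the 19th highest of all genes. The difference from vehicle was 0.28 ± 0.08 at 1 µg/ml, the 513th highest of all genes, and 0.07 ± 0.08 at 10 µg/ml.

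Nr4a2, best known for its need in midbrain dopamine neurons, varied least. Its log2 ratios were -0.14, -0.0017 and -0.13 in vehicle, 0.11, 0.23 and 0.05 at 1 µg/ml, -0.05, -0.09 and -0.17 at 10 µg/ml, and 0.23, 0.0017 and 0.29 at 50 µg/ml. The second 50 µg/ml array lay just above the highest vehicle array and below all 1 µg/ml arrays, so the 50 and 1 µg/ml groups overlapped, as did the 10 µg/ml and vehicle groups. The difference from vehicle was 0.26 ± 0.08 at 50 µg/ml (1.20-fold), 0.22 ± 0.08 at 1 µg/ml (1.16-fold) and -0.02 ± 0.08 at 10 µg/ml. Among all genes these ranked 872nd at 50 µg/ml and 957th at 1 µg/ml. The 50 and 1 µg/ml means differed by 0.04 ± 0.08.

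The members' differences at 1 and 50 µg/ml stood in unlike proportion: that at 1 µg/ml was 31.9% of that at 50 µg/ml for Nr4a1, 23.0% for Nr4a3 and 83.3% for Nr4a2. These shares depended on the scaling, and repeated quantile normalization gave 59.6% for Nr4a1, 43.5% for Nr4a3 and 96.8% for Nr4a2, in the same order. Within arrays, the log2 ratio of Nr4a1 minus that of Nr4a3 averaged 0.52 ± 0.16 at 50 µg/ml and -0.10 ± 0.12 in vehicle (SD, n = 3 each), and no array of the first group overlapped the other. Nr4a3 minus Nr4a2 averaged 0.84 ± 0.10 at 50 µg/ml, -0.05 ± 0.11 at 1 µg/ml and -0.11 ± 0.16 in vehicle. The 50 µg/ml arrays again did not overlap the vehicle arrays, and the 1 µg/ml mean lay within their spread.

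Set beside the rest of the nuclear receptor superfamily, Nr4a1 and Nr4a3 held the first and second place at 50 µg/ml among 38 measured receptors, and Nr4a2 the 7th. The places at 1 µg/ml were 1, 3 and 5 in the order Nr4a1, Nr4a3 and Nr4a2, and those at 10 µg/ml were 35, 13 and 26. The other 35 receptors ranged from -0.47 to 0.69 at 50 µg/ml with a median of 0.07, against a median of 0.02 over all genes. By limma's moderated test with Benjamini-Hochberg adjustment over all genes, 4 of the 35 were higher and 1 was lower at 50 µg/ml, where 8.75% of all genes were higher and 8.84% lower. The clock repressor Nr1d1 rose by 0.69 ± 0.08 (adjusted p = 7.34e-05), the orphan receptor Nr2f1 by 0.34 ± 0.07 (adjusted p = 0.00648) and the mineralocorticoid receptor Nr3c2 by 0.33 ± 0.08 (adjusted p = 0.00834). The vitamin D receptor Vdr fell by 0.47 ± 0.09 (adjusted p = 0.00291). Of the 35, 1 was higher and 1 lower at 1 µg/ml, with 2.51% and 1.74% of all genes. These were Nr1d1, at 0.45 ± 0.08 (adjusted p = 0.0112), and Rxra, a pairing partner of Nr4a1, which fell by 0.18 ± 0.04 (adjusted p = 0.0311). The call of Rxra was lost when any 1 of the 6 compared arrays was left out, and that of Nr1d1 at 1 µg/ml without the second vehicle array, which left 0 of the 35 called there. At 50 µg/ml 10 of the 35 were called without the second array at 10 µg/ml.

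**Figure D2:**
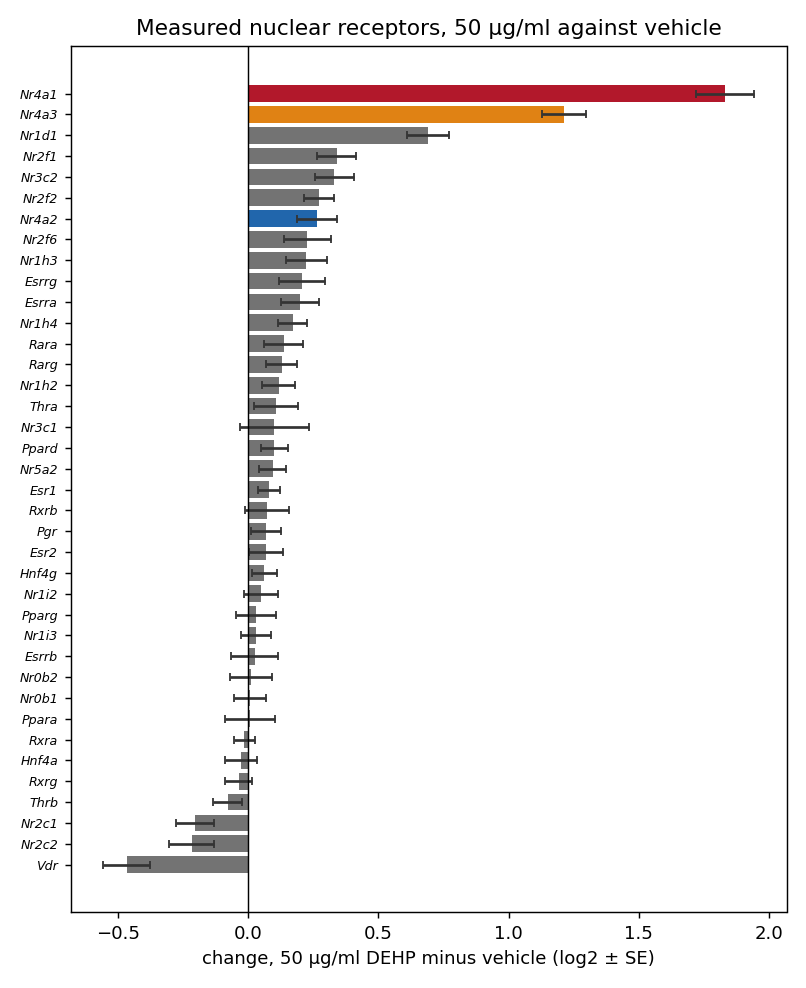
Difference between 50 µg/ml DEHP and vehicle in log2 (horizontal axis, with the standard error) for the 38 measured nuclear receptors (vertical axis, ordered by the difference); Nr4a1 is red, Nr4a3 orange and Nr4a2 blue. Nr4a1 at 1.83 and Nr4a3 at 1.21 lie beyond Nr1d1 at 0.69, and Nr4a2 at 0.26 lies among the other receptors.

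Immediate early genes, the class to which the members belong, were mostly higher at 50 µg/ml and partly at 1 µg/ml. Of 36 measured, 24 were higher and 3 lower at 50 µg/ml, with a median of 0.34. Over all genes 8.75% were higher and 8.84% lower there, with a median of 0.02. In this list the transcription factor Egr1 rose by 1.44 ± 0.13 (adjusted p = 8.60e-06), its relative Egr3 by 0.89 ± 0.08 (adjusted p = 1.20e-05), the AP-1 component Fos by 1.16 ± 0.15 (adjusted p = 0.000161) and the kinase Plk2 by 0.87 ± 0.09 (adjusted p = 2.29e-05), beside the 1.83 of Nr4a1. After repeated quantile normalization Egr1 stood at 1.64 and Nr4a1 at 1.36, so their order turned. At the low dose of 1 µg/ml 13 were higher and 1 was lower, with a median of 0.13 against 0.00 over all genes. Of all genes 2.51% were higher and 1.74% lower at that dose. There Fos rose by 1.56 ± 0.15 (adjusted p = 0.000277), Egr1 by 1.07 ± 0.13 (adjusted p = 0.0012), Egr2 by 0.78 ± 0.13 (adjusted p = 0.00891) and Plk2 by 0.74 ± 0.09 (adjusted p = 0.00114). Without the first vehicle array, the second vehicle array or the first 1 µg/ml array, 9 genes were called at that dose in place of 14. Limma called 0 of the 36 genes and 0 of all 14324 (0%) at 10 µg/ml, where 2 of the 36 and 899 of all genes (6.28%) had an unadjusted p under 0.05. In the promoter table, 28 of the 36 had a window, and 20 of them (71.4%) held TGACG, against 21.2% of all windows. The windows were not matched for base composition, and a link between the motif and the differences was not tested.

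Of 27 measured genes thought to act before Nr4a transcription, for CREB, MEF2, their coactivators and kinases, 3 were higher and 3 lower at 50 µg/ml, with a median of -0.02. These 22.2% stand beside 17.6% of all genes, which were also called about equally in both directions (8.75% higher and 8.84% lower). Creb1, which encodes CREB itself, fell by 0.36 ± 0.06 (adjusted p = 0.00156), its kinase Rps6ka5 fell by 0.38 ± 0.06 (adjusted p = 0.000594) and the calcium kinase Camk2d fell by 0.27 ± 0.07 (adjusted p = 0.0185), while the NF-kappaB subunit Rela rose by 0.27 ± 0.07 (adjusted p = 0.0233). Limma called 0 of the 27 at 1 µg/ml, where 3 had an unadjusted p under 0.05, and 1 was called without the second 10 µg/ml array. The 6 calls at 50 µg/ml were 2 without the first vehicle or the third 50 µg/ml array and 3 without the second vehicle array. Those 3 omissions each ended the call of both Camk2d and Rela, as did leaving out the second 50 µg/ml array for Camk2d and the first for Rela.

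Genes that respond to cyclic AMP had 4 of 12 higher and 0 lower at 50 µg/ml (median 0.15). Over all genes 8.75% were higher and 8.84% lower at that dose (median 0.02). Per1, a clock gene, rose by 0.64 ± 0.06 (adjusted p = 1.14e-05), the kinase Sik1 by 0.55 ± 0.11 (adjusted p = 0.004), the MAP kinase phosphatase Dusp1 by 0.39 ± 0.08 (adjusted p = 0.00496) and the repressor Nfil3 by 0.23 ± 0.07 (adjusted p = 0.0498, lost in 14 of 19 alternatives). All 4 were also on the immediate early list. Dusp1 alone was called at 1 µg/ml, where it rose by 0.60 ± 0.08 (adjusted p = 0.00308). At that dose 2.51% of all genes were higher and 1.74% lower. Without the second 10 µg/ml array 2 of the 12 were called.

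Of 18 measured partners, coregulators and modifying kinases of the receptors, 2 were higher and 3 lower at 50 µg/ml (median 0.02). These 27.8% stand beside 17.6% of all genes called in either direction. The coactivator Ncoa1 rose by 0.38 ± 0.07 (adjusted p = 0.00156) and Ncoa3 fell by 0.31 ± 0.08 (adjusted p = 0.0136), while Bcl2, a survival protein that Nr4a1 can bind at mitochondria, rose by 0.40 ± 0.07 (adjusted p = 0.00119). Vhl, which marks hypoxia factors for degradation, fell by 0.24 ± 0.06 (adjusted p = 0.0198). The call of Ncoa3 was lost without the second vehicle array, and that of Vhl without the first or second vehicle or the first or second 50 µg/ml array. The 5 calls of the list were 3 without the first or second vehicle array or the first 50 µg/ml array. Rxra was the 1 partner called at 1 µg/ml, where 2.51% of all genes were higher and 1.74% lower. The count there was 0 without any 1 of the 6 compared arrays and 2 without the second 50 µg/ml array. It was 4 after repeated quantile normalization, with array weights or with the compared groups alone.
Of 36 genes reported elsewhere as Nr4a targets, mostly in liver, skeletal muscle, endocrine or nerve cells, 4 were higher and 1 lower at 50 µg/ml (median 0.03), 13.9% beside the same 17.6% of all genes. Nfkbia, the inhibitor of NF-kappaB, rose by 0.79 ± 0.05 (adjusted p = 1.12e-06), the muscle glycogen phosphorylase Pygm by 0.46 ± 0.08 (adjusted p = 0.00209) and the coactivator Ppargc1b by 0.39 ± 0.07 (adjusted p = 0.00236). Skp2, a ubiquitin ligase subunit of the cell cycle, fell by 0.43 ± 0.06 (adjusted p = 0.000322). Nfkbia alone was called among them at 1 µg/ml, where it rose by 0.35 ± 0.05 (adjusted p = 0.00596). The shares of all genes there were the same 2.51% higher and 1.74% lower. Without the third vehicle, the second 1 µg/ml or the second 10 µg/ml array 2 were called.

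**Figure D3:**
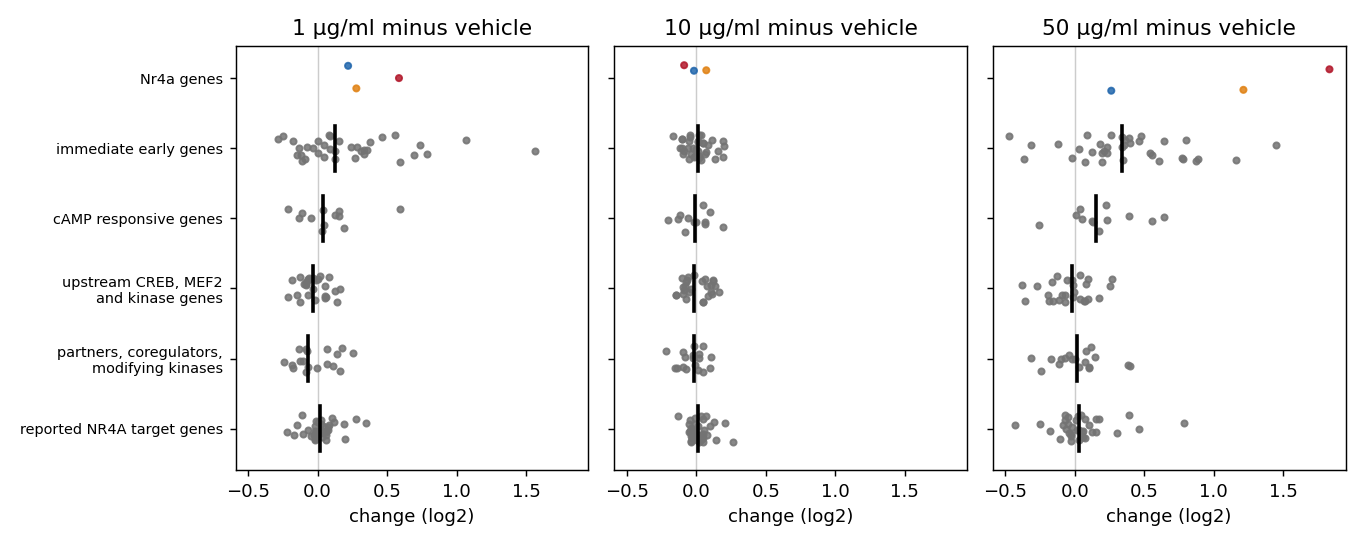
Difference from vehicle in log2 (horizontal axis) at 1, 10 and 50 µg/ml DEHP (panels) for the 3 Nr4a genes (coloured as in the receptor plot) and for each measured gene of 5 lists (grey points, spread vertically for legibility); black bars are list medians. The immediate early median is 0.34 at 50 µg/ml, and the medians of the upstream, partner and target lists are -0.02, 0.02 and 0.03.

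The genes whose pattern was most like each member were ranked by Pearson's r of log2 ratios over the 12 arrays. This is a description of 12 points in 4 groups that share their arrays and the step at 50 µg/ml. The most like Nr4a1 were Nfkbia (r = 0.979), the thrombin-binding thrombomodulin gene Thbd (0.970), Egr3 (0.967), the ubiquitin ligase Trim8 (0.965) and the growth regulator Myc (0.965). Nr4a3 came 7th for Nr4a1, at r = 0.964. The most like Nr4a3 were Thbd (0.987), Tsku (0.979), Per1 (0.979), Myc (0.979) and the cell cycle inhibitor Cdkn1c (0.977), with Nr4a1 in 11th place. Thbd and Myc stood on both lists, at differences of 0.87 ± 0.06 and 0.47 ± 0.05 at 50 µg/ml. Nr4a2 had other genes nearest to it, the acetyltransferase Kat5 (0.964), the neonatal Fc receptor Fcgrt (0.924), the palmitoyltransferase Zdhhc9 (0.923), the RNA methylation reader Ythdf2 (0.915) and the phosphatase inhibitor Ppp1r11 (0.915), whose differences at 50 µg/ml ran from 0.11 to 0.28. Its r was 0.767 with Nr4a1 and 0.702 with Nr4a3.

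**Figure D4:**
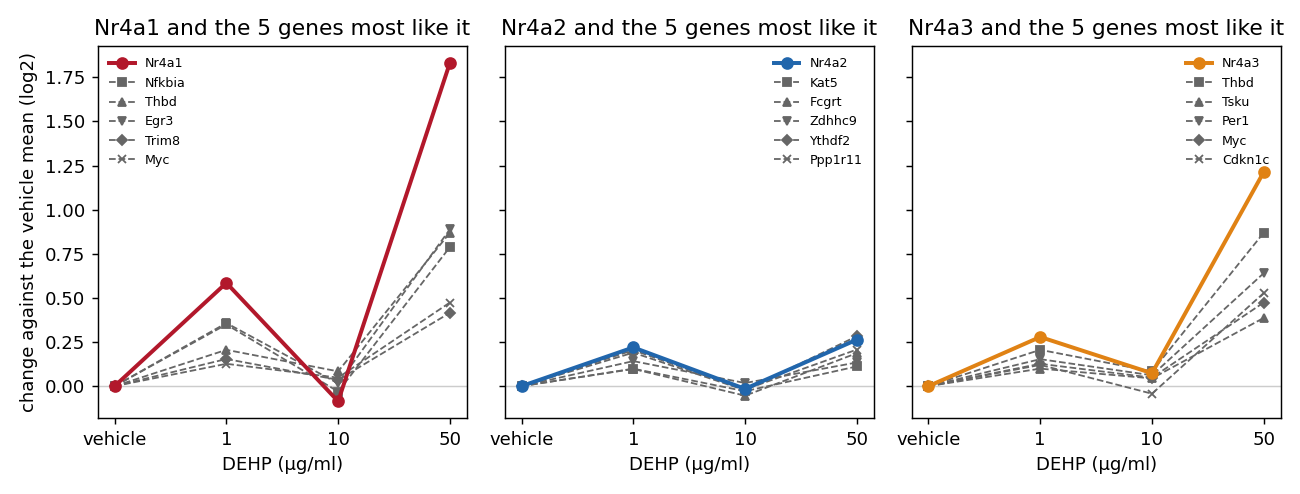
Difference from the vehicle mean in log2 (vertical axis) by DEHP dose in µg/ml (horizontal axis, not to scale) for each Nr4a gene (coloured line) and the 5 genes with the highest r to it over 12 arrays (grey dashed lines with a symbol each). Nr4a1 reaches 1.83 while the genes most like it stay at or below 0.89.

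Markers of the cell types such cultures can hold also differed between groups, and in bulk RNA fewer cells of a type and less RNA per cell cannot be told apart. Markers of macrophages, cells in which Nr4a genes are also known, were lower at 50 µg/ml in 17 of 18 cases. At that dose 17.6% of all genes were called, 8.75% higher and 8.84% lower. The median log2 ratio of that list lay between -1.08 and -0.95 on the 50 µg/ml arrays, between -0.25 and 0.11 on the 1 µg/ml arrays and between 0.16 and 0.31 on the vehicle arrays. At 1 µg/ml 2 of 18 were lower, with 1.74% of all genes. Each omission of 1 of the 6 compared arrays left 0 or 1. Repeated quantile normalization gave 6 calls and array weights gave 4. Limma called 0 markers of any list at 10 µg/ml. There 5 of 18 macrophage and 12 of 19 heart muscle markers had an unadjusted p under 0.05, with 6.28% of all genes. The macrophage medians at that dose lay between -0.06 and 0.16. Heart muscle markers had 11 of 19 higher and 1 lower at 50 µg/ml, with array medians of 0.05 to 0.13 at 50 µg/ml and -0.17 to -0.01 in vehicle. Those 12 calls were 6 without the third vehicle array and 7 without the first 50 µg/ml array. At 10 µg/ml the heart muscle array medians lay between 0.02 and 0.09. The list's median difference from vehicle was 0.20 at 10 µg/ml (lowest gene 0.006) and 0.24 at 50 µg/ml.
Endothelial markers had 5 of 10 higher and 1 lower at 50 µg/ml, with array medians of 0.21 to 0.30 against -0.03 to 0.04 in vehicle. Of those 6 calls 2 were left without the first vehicle, the third vehicle or the third 50 µg/ml array, 1 without the second 50 µg/ml array and 0 after repeated quantile normalization. The same list had 3 of 10 lower and 0 higher at 1 µg/ml, with array medians of -0.43 to -0.18 at 1 µg/ml against -0.03 to 0.04 in vehicle. Those 3 calls were 0 without the second vehicle or the third 1 µg/ml array, 1 without the first vehicle array and 5 without the second 10 µg/ml array. Fibroblast markers had 1 of 14 higher and 4 lower at 50 µg/ml, and smooth muscle markers 2 of 9 higher and 4 lower. Of all genes 17.6% were called at that dose. At 1 µg/ml 3 of 14 fibroblast markers were lower, 1 of 19 heart muscle markers was higher and 0 of 9 smooth muscle markers were called. The fibroblast count ran from 1 to 5 over the alternatives and the heart muscle count from 0 to 2. Over all genes 2.51% were higher and 1.74% lower there. The part of these shifts in the Nr4a values was not tested. Dose and any difference in how the dishes were handled cannot be told apart.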

How the data were processed

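Biotin-labelled cRNA of 12 cultures was measured on Affymetrix arrays, made from 5 µg of total RNA per the labels' protocols. Per the submitters' processing notes, the authors used RMA (robust multi-array average), with no version recorded here. Deposited values are linear ratios of an array to its probe set's median across the 12 arrays, a reading that rests on a check: the middle of each probe set's sorted log values was 0 within 1e-06. Their direction is not recorded, and the array was taken as the numerator. Of 27342 probe sets 15097 had 1 gene symbol, 323 several and 11922 none in the platform annotation. Ratios were converted to log2 and averaged over the probe sets of a gene, giving 14324 genes (499 with several probe sets). The number of arrays limits the precision.

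A model of 4 group means was fitted to the 12 arrays in limma 3.58.1 (R 4.3.3), with 8 residual degrees of freedom. Empirical Bayes moderation, two-sided tests and Benjamini-Hochberg adjustment over all genes were used, at a threshold of 0.05. The method was tested on simulated data with independent noise of equal spread on every array. The measured arrays differed in spread, which the simulation did not cover. An adjusted p in the text comes from the fit to the measured arrays. For genes outside the family, "higher", "lower", "rose" and "fell" mean that this p passed the threshold. Members, gene lists and tests were chosen with earlier results of these data known. Named list genes are the 4 called genes with the largest difference per list and dose. G6pc and Fasl were matched through Entrez identifiers, and list genes without a measured symbol were not analysed here.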

Additional observations from a re-analysis of the deposited data

How the results depend on the processing

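The differences of the members and of the named genes and the counts of calls were recomputed in 19 alternatives, 12 that leave out 1 array and 7 other settings. Ranks, separation of arrays, list medians, r values and differences within arrays were not. All differences of Nr4a1, Nr4a3 and Nr4a2 at 50 and 1 µg/ml stayed above 0. Only rescaling could turn this sign, as the compared arrays did not overlap. A repeated quantile normalization, which forces the arrays to 1 spread, gave 1.36 for Nr4a1 and 0.936 for Nr4a3 at 50 µg/ml, and 0.812 and 0.407 at 1 µg/ml. Without 1 array Nr4a1 ran from 1.80 to 1.85 at 50 µg/ml, Nr4a3 from 1.14 to 1.26 and Nr4a2 from 0.21 to 0.35. At 10 µg/ml the sign of Nr4a1 and of Nr4a2 changed with the array left out (-0.22 to 0.01 and -0.04 to 0.03). The 1 µg/ml difference as a share of that at 50 µg/ml ran from 25.9% to 36.8% for Nr4a1, 19.9% to 26.1% for Nr4a3 and 62.8% to 106% for Nr4a2 without 1 array, added after seeing the data.

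The count of genes called at 50 µg/ml, 2520, ran from 1731 to 3153 without 1 array and from 2096 to 3181 in the other settings. At 1 µg/ml it was 608, with 1661 when the fit held the compared groups alone, 1772 with array weights and 1179 after repeated quantile normalization. Without 1 array it ran from 176 to 1282: it was 176, 200 and 193 without vehicle replicates 1, 2 and 3, 193, 361 and 206 without 1 µg/ml replicates 1, 2 and 3, and 1282 without 10 µg/ml replicate 2. At 10 µg/ml it was 0, with 39 after repeated quantile normalization, 90 with array weights and 0 to 1 without 1 array. The cause was not tested. For the lists, alternatives chosen after seeing the data gave 24 to 27 immediate early genes called at 50 µg/ml (27 in the report) and 9 to 18 at 1 µg/ml (14 in the report); with array weights 9 other nuclear receptors and 7 cyclic AMP genes were called at 50 µg/ml. At 1 µg/ml array weights gave 3 upstream, 3 target, 2 cyclic AMP and 5 endothelial genes, repeated quantile normalization gave 2 upstream, 3 target and 3 cyclic AMP genes, and the compared groups alone gave 5 other nuclear receptors. At 10 µg/ml array weights called 4 macrophage, 2 heart muscle and 1 fibroblast marker, and repeated quantile normalization 2 macrophage and 2 heart muscle markers. Of 32 differences named for list genes, 7 lost the call in at least 1 alternative and 0 changed sign.

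Samples with the same replicate number deviated together about as much as samples with unlike numbers, so the numbers are taken as names. Over all genes r ran from -0.23 to 0.43 in 18 pairs of the same number, 6 of them over 0.1. In 36 pairs of unlike numbers it ran from -0.48 to 0.49, with 10 over 0.1. With each number in every group, a replicate block alters errors but not differences. It gave 2540, 0 and 742 calls at 50, 10 and 1 µg/ml. Dim probe sets could not be filtered out, since the ratios hold no level.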
